A study of Homo sapiens with 31 samples.

Results

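The integrated stress response and the unfolded protein response were followed here through 37 genes, the targets of ATF4 and the chaperones of the endoplasmic reticulum (ER) together with their sensors. They were taken by symbol from the deposited table of FPKM (fragments on a gene divided by its length and by the total of the library). The table gave 19221 genes that could be used, and all 37 were among them. mRNA had been sequenced in 31 libraries of 4 groups from 2 human cell lines that the study used as ovarian cancer lines. The study's discussion grants that using C13* is questionable given its origin, and that A2780 was reported as an unlikely high-grade serous line. C13* is a cisplatin-resistant line, grown with a control shRNA (C13* shCON, n = 7) or with an shRNA against CEBPB, which encodes C/EBPβ (C13* shCEBPB, n = 8), both brought in by lentivirus. A2780 (n = 8) was compared with A2780 OlaR (n = 8), a line described as raised from A2780 by growth in rising doses of olaparib, an inhibitor of PARP. The labels name no added ER stressor in any group. The study's methods speak of resistant clones for the OlaR line, and whether the shRNA lines were single clones is not given in the sources used here.

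As background, cells that meet unfolded ER proteins, lack of amino acids or other stress phosphorylate eIF2α, which slows most translation but lets the mRNA of the transcription factor ATF4 be translated. ATF4 then raises genes for amino acid synthesis and transport and the factor DDIT3 (CHOP), and it binds DNA together with C/EBP proteins, C/EBPβ among them, at composite C/EBP-ATF sites. The ER sensors PERK (EIF2AK3), IRE1 (ERN1) and ATF6 start the unfolded protein response, in which IRE1 splices the XBP1 mRNA and ATF6 is cut to release a transcription factor. XBP1 and ATF6 raise chaperones and the genes of ER-associated degradation (ERAD), which returns misfolded proteins to the cytosol. FPKM per gene give mRNA levels, and they hold neither phosphorylation nor XBP1 splicing nor ATF6 cleavage.

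The promoters of the genes are shown first, since short sequences named for these pathways lie in some of them. RefSeq promoters on GRCh38.p14 were given for 35 of the 37 genes, and PSPH and SHMT2 were the other two. In the 250 bases before each start, both strands were searched for the C/EBP-ATF composite site TGATGNAA. It was found in 3 of 35 genes (8.57%), CHAC1, ASNS and HERPUD1, against 3.89% of 27305 genes. The ER stress element, CCAAT and CCACG with 9 bases between them, was found in 6 of 35 (17.1%), XBP1, HSPA5, HSP90B1, CALR, PDIA6 and CRELD2, against 0.0916% of all genes. The ER stress element II, ATTGG and CCACG with 1 base between them, was found in SDF2L1, HYOU1 and HERPUD1, against 0.0659% of all genes, and the unfolded protein response element TGACGTGG in ALDH18A1 and HYOU1, against 0.78%. The C/EBP palindrome TTGCGCAA was in none of the 35 windows and in 0.146% of all genes. These genes were chosen as known targets of the pathways, and a match is only a string of letters in this window. The stretches of 5 promoters before the first annotated exon follow, with the letters of every match in capitals. They were picked by hand among the genes that hold an ER stress element of either kind. HSP90B1, CALR, PDIA6 and CRELD2 hold one too and are not shown. The HSPA5 stretch is chr9:125241383-125241593 (minus strand), XBP1 is chr22:28800598-28800819 (minus), HYOU1 is chr11:119057228-119057455 (minus), SDF2L1 is chr22:21642052-21642301 (plus) and HERPUD1 is chr16:56931892-56932141 (plus).
HSPA5: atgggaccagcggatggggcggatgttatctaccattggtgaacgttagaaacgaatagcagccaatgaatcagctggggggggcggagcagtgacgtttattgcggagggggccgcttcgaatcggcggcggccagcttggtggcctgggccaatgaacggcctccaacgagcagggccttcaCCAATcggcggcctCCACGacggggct
XBP1: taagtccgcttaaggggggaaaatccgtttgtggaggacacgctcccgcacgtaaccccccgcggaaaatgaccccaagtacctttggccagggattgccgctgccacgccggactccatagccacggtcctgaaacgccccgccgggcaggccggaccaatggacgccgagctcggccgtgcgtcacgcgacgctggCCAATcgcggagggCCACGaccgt
HYOU1: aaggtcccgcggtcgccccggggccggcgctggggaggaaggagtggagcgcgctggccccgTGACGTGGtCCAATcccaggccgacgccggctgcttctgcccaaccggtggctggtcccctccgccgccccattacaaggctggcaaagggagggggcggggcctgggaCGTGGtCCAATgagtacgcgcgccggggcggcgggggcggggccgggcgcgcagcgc
SDF2L1: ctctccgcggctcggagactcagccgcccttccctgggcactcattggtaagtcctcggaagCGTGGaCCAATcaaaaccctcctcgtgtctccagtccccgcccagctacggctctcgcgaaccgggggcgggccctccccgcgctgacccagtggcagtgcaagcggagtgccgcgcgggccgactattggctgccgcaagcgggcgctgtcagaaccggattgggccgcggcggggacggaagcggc
HERPUD1: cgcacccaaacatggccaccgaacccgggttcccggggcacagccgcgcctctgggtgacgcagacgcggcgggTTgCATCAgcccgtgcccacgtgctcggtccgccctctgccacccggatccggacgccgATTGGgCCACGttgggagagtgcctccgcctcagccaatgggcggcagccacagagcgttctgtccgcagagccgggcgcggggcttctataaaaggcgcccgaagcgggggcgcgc
The upstream match of HYOU1 joins the unfolded protein response element and an ER stress element II that overlap in the letters CGTGG. The composite sites of CHAC1 (chr15:40953251-40953280, plus) and ASNS (chr7:97872458-97872487, minus) lie inside the first exon of a longer annotated transcript, and 30 bases around each are shown because these are the ATF4 targets described below.
CHAC1: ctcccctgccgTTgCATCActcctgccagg
ASNS: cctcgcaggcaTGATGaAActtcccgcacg

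The targeted gene was lower in the knockdown libraries. In shCON the level of CEBPB was 85.8 ± 9.93 FPKM (SD, n = 7), against 47.1 ± 9.05 (SD, n = 8) with the shRNA to CEBPB, and no library of one group reached the other. The log2 fold change, always of FPKM + 1 and first group minus second, was -0.87 (SE 0.11, adjusted p = 1.42e-06, limma, two-sided) and the exact permutation p was 0.000155, the smallest it could be. In A2780 OlaR, CEBPB had 112 ± 11.6 FPKM against 99.7 ± 7.63 in A2780 (log2 fold change 0.16, SE 0.06, adjusted p = 0.0202), with groups that overlapped and an exact permutation p of 0.0314. This second call was lost under 6 of the alternatives described at the end. Among these are the replicate blocks by either number, which are the same fit in these groups.

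Before the results, A2780 OlaR and C13* shCON resembled each other more than either resembled the other group of its own line. Over 19221 genes the group means of log2(FPKM + 1) of A2780 OlaR and C13* shCON correlated at r = 0.996, while those of A2780 and A2780 OlaR correlated at 0.856 and those of shCON and shCEBPB at 0.890. Libraries of the same group correlated at 0.989 to 0.999. Over the 37 genes the median absolute log2 difference between OlaR and shCON was 0.16, against 0.86 between OlaR and A2780. Over all genes with a mean log2(FPKM + 1) above 1 in either group of the pair, these medians were 0.13 and 0.70. All 3 squamous or basal markers (KRT5, KRT14, TP63) had a mean of at least 1 FPKM in shCON and OlaR, with sums over the 3 of 1499 to 2083 FPKM, and none did in shCEBPB and A2780, with sums of 0 to 0.316. Of the 8 epithelial markers, 7 had a mean of at least 1 FPKM in shCON and OlaR and 3 in shCEBPB and A2780, and their sum was 2326 to 2573 FPKM in shCON, 2543 to 3060.5 in OlaR, 1777 to 2150.1 in shCEBPB and 85.7 to 94.0 in A2780. They did not move together: KRT19 had 1470.2 FPKM in shCON, 1836 in OlaR, 0.0306 in shCEBPB and 0.197 in A2780, while KRT7 had 8.02, 9.66, 583 and 0.0626 in that order. Against shCON, the means of EPCAM, CDH1 and PAX8 in shCEBPB were lower and those of KRT8, KRT18 and MUC16 higher. The mean of MUC16 was below 1 FPKM in both groups. The summed level of the 5 mesenchymal markers was 24.6 to 38.0 FPKM in shCON and OlaR, 349.996 to 378 in shCEBPB and 857 to 899 in A2780. VIM made up most of the sum in shCEBPB and A2780, with means of 342 and 809 FPKM. Its mean was 9.82 FPKM in shCON (8.49 to 10.5) and 0.160 in OlaR (0.0857 to 0.265), with no overlap. CDH2 went against VIM in C13*, with a mean of 17.3 FPKM in shCON and 7.56 in shCEBPB. The leukocyte gene PTPRC had 85.9 FPKM in A2780 and at most 0.0144 in any library of the other groups, while the other 3 genes of its list had means below 1 FPKM in every group. Libraries labelled as 2 different lines were thus nearly alike over all genes, though not in VIM. Libraries labelled as 1 line differed in their markers, so the labels themselves are in doubt. Whether lines or labels were exchanged was not tested, and every group name below is that of the label. The shares of cell line identity, C/EBPβ knockdown and olaparib resistance in any difference below cannot be told apart, and in bulk RNA fewer cells of a type and less RNA per cell cannot be told apart either. One shCON library (replicate 1) has A2780 in its cell line field against C13* in its title, and it was kept as shCON.

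**Figure D1:**
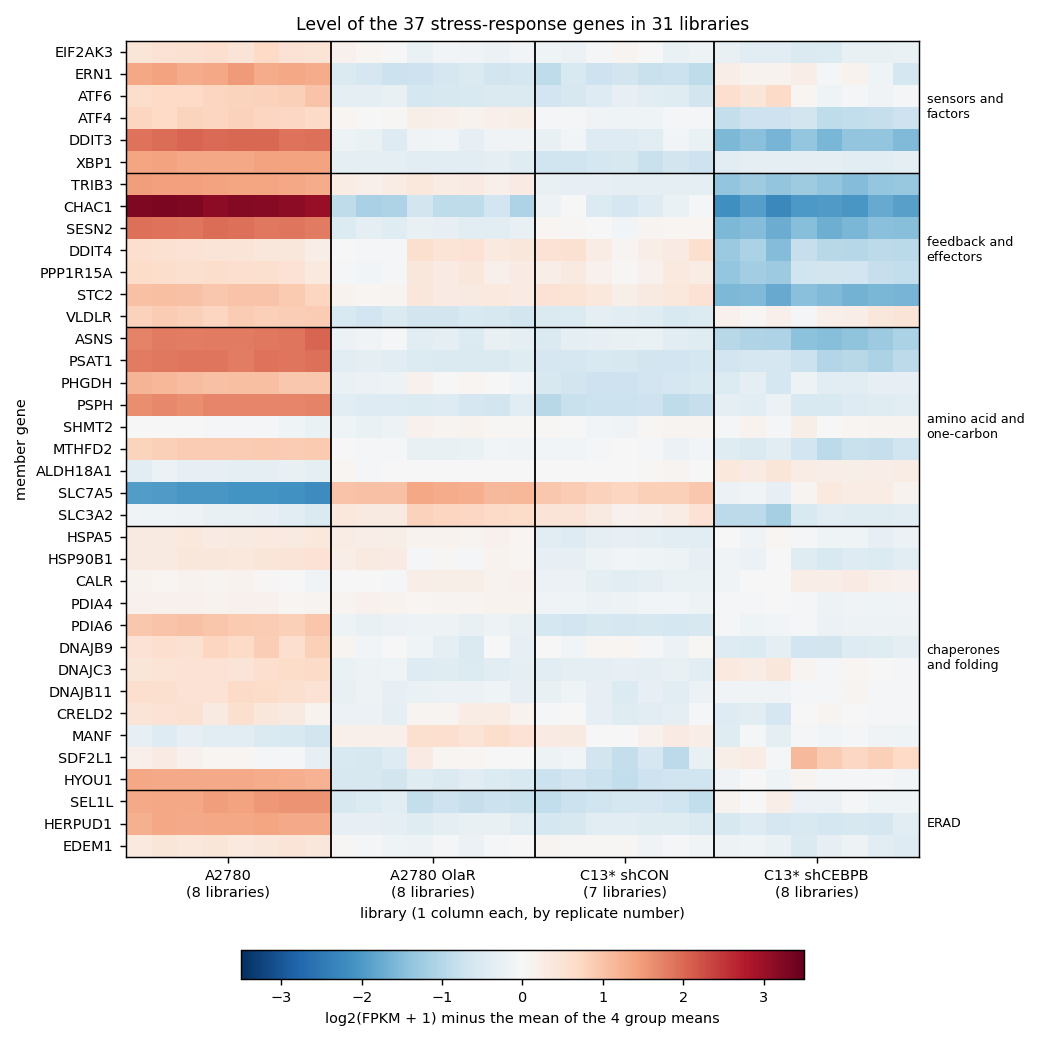
Each column is 1 of the 31 libraries and each row 1 of the 37 genes, and colour gives log2(FPKM + 1) minus the mean of the 4 group means of that gene. CHAC1, DDIT3, SESN2, ASNS and PSAT1 are red in all 8 A2780 libraries, SLC7A5 is blue there, and the columns of A2780 OlaR and C13* shCON look alike.

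The first question of the study was what changes in C13* when C/EBPβ is depleted. In C13* shCEBPB 6 of 7 feedback and stress effectors were lower, the genes for amino acid supply were mixed, and 7 of 12 ER chaperones and folding genes were higher. Of the 37 genes, 15 were higher, 17 were lower and 5 were not called at an adjusted p under 0.05 (limma over 12006 genes). That is 86.5% called, against 84.7% of all genes tested, and 40.5% higher and 45.9% lower against 38.9% and 45.7% of all genes. The median log2 fold change was -0.06 over the 37 genes and -0.07 over all genes. With a fold change of at least 2, 7 genes were lower (STC2, CHAC1, SESN2, DDIT4, DDIT3, PPP1R15A and TRIB3) and 1 was higher (SDF2L1), where 16.7% and 12.7% of all genes passed. The groups did not overlap for 13 of the higher and 16 of the lower genes, against 29.3% and 36.7% of all genes.

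Among the sensors and transcription factors, 3 were higher and 3 lower. ATF4 (chromosome 22, 39519695 to 39522683 on hg38), the central factor of the integrated stress response, ranged from 181 to 196 FPKM in shCON (median 194) and from 108 to 128 in shCEBPB (median 118). All shCEBPB libraries were below all shCON libraries. The means were 189.8 ± 6.79 (SD, n = 7) and 117 ± 7.01 (SD, n = 8), a log2 fold change of -0.69 (SE 0.04, adjusted p = 2.83e-11). DDIT3 (chromosome 12, 57516588 to 57521737), the pro-apoptotic factor CHOP, ranged from 14.7 to 19.1 FPKM in shCON (median 17.2) and from 5.96 to 7.46 in shCEBPB (median 6.66). These ranges lay far apart, and the log2 fold change was -1.21 (SE 0.07, adjusted p = 7.33e-12). DDIT3 shares 105 exonic bases with another gene of the same strand and 413 with MARS1 and MBD6 on the other strand, and whether reads were counted by strand is not given in the sources used here. XBP1 (chromosome 22, 28794555 to 28800597), the factor spliced by IRE1, ranged from 39.5 to 46.1 FPKM in shCON (median 42.0) and from 51.8 to 55.4 in shCEBPB (median 54.0). It was higher in every shCEBPB library, with a log2 fold change of 0.33 (SE 0.04, adjusted p = 1.88e-07). ERN1, the IRE1 sensor itself, had the largest rise of this role, from 1.37 to 2.07 FPKM in shCON (median 1.65) to between 1.91 and 4.23 in shCEBPB (median 3.82). A single shCEBPB library, replicate 8 at 1.91 FPKM, lay within the shCON range, and the log2 fold change was 0.74 (SE 0.11, adjusted p = 3.85e-06). The sensor ATF6 was also higher (0.66) and EIF2AK3, which encodes PERK, was lower (-0.24), a call lost under quantile normalization (-0.05, adjusted p = 0.389).

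The feedback and stress effectors were lower in 6 of 7, with a median log2 fold change of -1.42 against -0.07 over all genes. STC2 (chromosome 5, 173314723 to 173328447), a secreted glycoprotein induced by ER stress, fell most of the 37 genes on the FPKM + 1 scale. It ranged from 29.8 to 36.8 FPKM in shCON (median 33.6) and from 6.87 to 8.60 in shCEBPB (median 7.78), with no overlap. Its log2 fold change was -1.99 (SE 0.05, adjusted p = 1.31e-16), and its means were 34.0 ± 2.60 (SD, n = 7) and 7.79 ± 0.509 FPKM (SD, n = 8). CHAC1, which degrades glutathione and holds the composite site shown above, had a log2 fold change of -1.71, with 3.96 to 6.43 FPKM in shCON and 0.581 to 1.22 in shCEBPB. Such low levels are understated on the FPKM + 1 scale, and by the ratio of the means CHAC1 fell more (5.865 times) than STC2 (4.36 times). SESN2 and DDIT4, which restrain mTORC1, fell by 1.61 and 1.42 on the log2 scale, PPP1R15A (GADD34), which returns eIF2α to its active form, by 1.15, and TRIB3, a pseudokinase that restrains ATF4, by 1.05. The exception was VLDLR, a lipoprotein receptor, which ranged from 2.24 to 2.70 FPKM in shCON (median 2.36) and from 3.44 to 5.46 in shCEBPB (median 4.34). It was higher in every shCEBPB library (log2 fold change 0.64, SE 0.07, adjusted p = 1.13e-07), and it shares 1360 exonic bases with genes of the other strand.

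Of the genes for amino acid and one-carbon supply, 3 were higher, 5 lower and 1 was not called. SLC3A2 (chromosome 11, 62856004 to 62888880), the heavy chain that carries amino acid transporters to the membrane, ranged from 354 to 455 FPKM in shCON (median 397) and from 144 to 246 in shCEBPB (median 230.0). The ranges did not meet, and the log2 fold change was -0.97 (SE 0.11, adjusted p = 3.39e-07). Its partner SLC7A5, the light chain LAT1, fell by 0.79 on the log2 scale, from a median of 559 FPKM to 338. ASNS, which makes asparagine, fell by 0.88 and MTHFD2, of mitochondrial folate metabolism, by 0.57. ASNS shares 2415 of its 4896 exonic bases with an unnamed gene of the same strand. PSPH, the last enzyme of serine synthesis, rose most, from 9.42 to 11.2 FPKM in shCON (median 10.9) to between 12.9 and 16.6 in shCEBPB (median 14.3). No library of PSPH overlapped (log2 fold change 0.40, SE 0.06, adjusted p = 2.47e-06). The serine synthesis genes therefore did not share a direction, since PHGDH was higher (0.28) and PSAT1 lower (-0.23), both with groups that overlapped. The call of PSAT1 was lost after a correction for GC content and gene length (-0.08, adjusted p = 0.177). ALDH18A1, of proline synthesis, was higher (0.26). SHMT2 was not called (0.06, 95% interval -0.04 to 0.15).

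Of the 12 ER chaperones and folding genes, 7 were higher, 2 lower and 3 not called. HSPA5 (chromosome 9, 125234853 to 125241382), the chaperone BiP that also restrains the ER sensors, ranged from 266 to 299 FPKM in shCON (median 281) and from 299.9 to 379.9 in shCEBPB (median 333). The groups just failed to touch, and the log2 fold change was 0.26 (SE 0.05, adjusted p = 8.04e-05). SDF2L1 (chromosome 22, 21642302 to 21644299), an ER protein of chaperone complexes, rose most of the 37 genes over all libraries, from 24.6 to 44.1 FPKM in shCON (median 31.1) to between 46.2 and 106 in shCEBPB (median 78.0). Its libraries were the most spread, with 33.8 ± 7.74 (SD, n = 7) and 74.0 ± 20.0 FPKM (SD, n = 8), and the log2 fold change was 1.09 (SE 0.17, adjusted p = 9.93e-06). HYOU1 (0.68), PDIA6 (0.46), DNAJC3 (0.45), CALR (0.40) and DNAJB11 (0.24) were also higher, and HYOU1, PDIA6 and CALR hold an ER stress element of either kind, as do HSP90B1 and CRELD2 below. DNAJB9, a co-chaperone that restrains IRE1, ranged from 5.49 to 6.84 FPKM in shCON (median 6.57) and from 3.71 to 4.997 in shCEBPB (median 4.46). It fell with no overlap of the groups (-0.44, SE 0.06, adjusted p = 2.67e-06), as did MANF, a secreted ER protein (-0.34). HSP90B1 (GRP94) was not called (-0.11, 95% interval -0.27 to 0.05), nor was PDIA4 (0.06, -0.01 to 0.14) or CRELD2 (0.04, -0.19 to 0.26).

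The 3 genes of ER-associated degradation went 3 ways. SEL1L (chromosome 14, 81471547 to 81533853), the scaffold of the HRD1 ligase, ranged from 12.8 to 15.6 FPKM in shCON (median 14.4) and from 20.6 to 28.1 in shCEBPB (median 22.1). Every shCEBPB library was above every shCON library (0.67, SE 0.07, adjusted p = 4.73e-08). EDEM1, a lectin that picks misfolded glycoproteins, ranged from 13.97 to 16.6 FPKM in shCON (median 15.8) and from 10.5 to 13.6 in shCEBPB (median 12.7), with all shCEBPB libraries lower (-0.29, SE 0.06, adjusted p = 0.000314). HERPUD1, a membrane component of the same pathway whose promoter holds an ER stress element II and a composite site, was not called (-0.06, 95% interval -0.16 to 0.04).

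**Figure D2:**
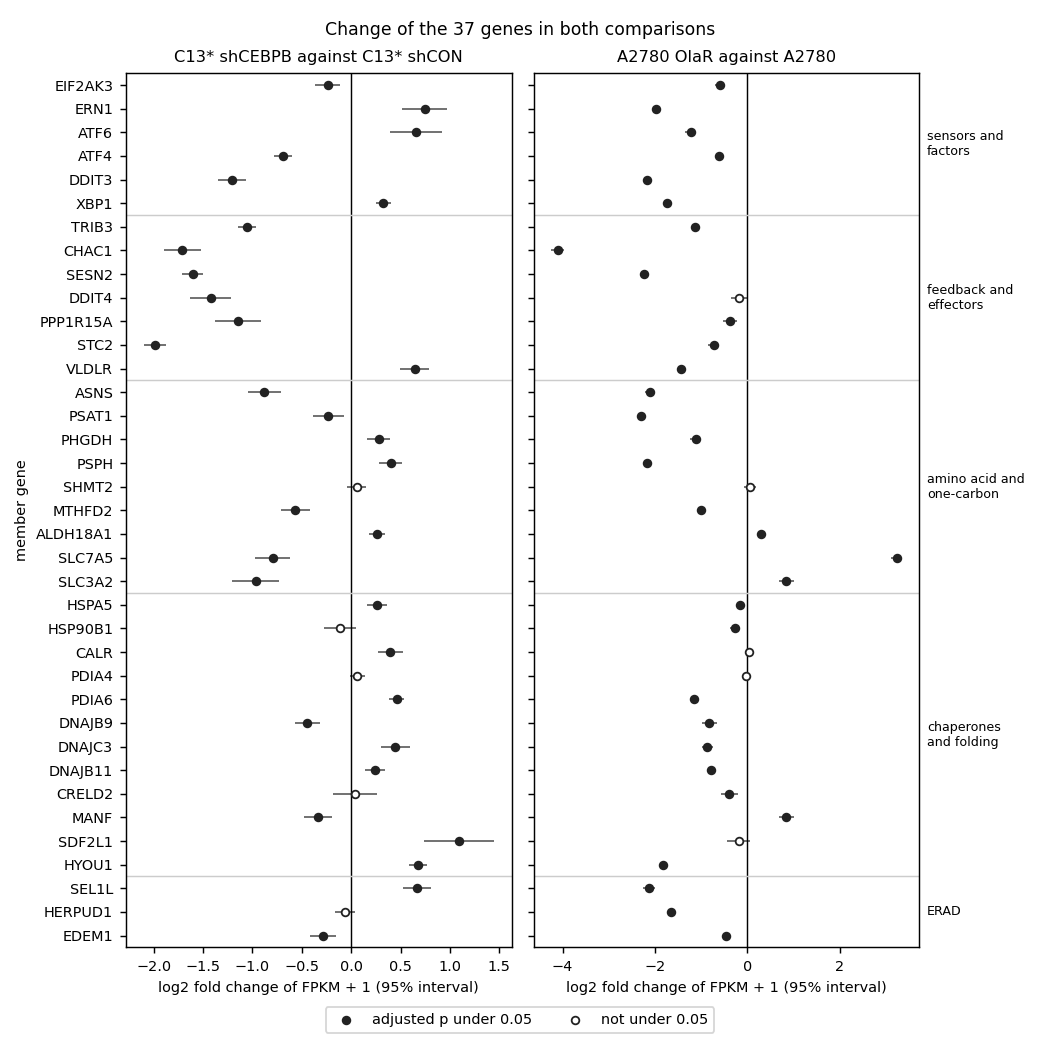
Points give the log2 fold change of FPKM + 1 of each gene and lines its 95% interval, on the left for C13* shCEBPB (n = 8) against C13* shCON (n = 7) and on the right for A2780 OlaR against A2780 (n = 8 each), with filled points where the adjusted p was under 0.05. On the left 6 of 7 feedback and stress effectors lie below 0 and 7 of 12 chaperones are filled above 0, and on the right 28 of 37 genes are filled below 0. The axes of the 2 panels have different ranges.

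The second question was what differs between the olaparib-resistant line and A2780. The libraries labelled A2780 OlaR had lower levels of most of these genes, all sensors included, while the transporter pair SLC7A5 and SLC3A2 was higher. Of the 37 genes, 4 were higher, 28 lower and 5 not called (limma over 12458 genes). The share called was 86.5% against 89.8% of all genes, but the share lower was 75.7% against 49.7% and the share higher 10.8% against 40.1%. The median log2 fold change was -0.82 over the 37 genes and -0.12 over all genes. Rescaling by median ratios moved that all-gene median to 0.006 and left 27 of the 37 lower and 7 higher. With a fold change of at least 2, 17 were lower and 1 higher, where 20.1% and 15.5% of all genes passed, and the groups did not overlap for 25 of the lower and 4 of the higher genes, against 41.3% and 32.8% of all genes.

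All 6 sensors and transcription factors were lower in OlaR. ATF4 ranged from 319.7 to 353 FPKM in A2780 (median 338) and from 203 to 233 in OlaR (median 223). The groups lay apart, with a log2 fold change of -0.61 (SE 0.03, adjusted p = 1.35e-12). DDIT3 ranged from 79.1 to 88.4 FPKM in A2780 (median 84.3) and from 15.0 to 19.3 in OlaR (median 18.4), a log2 fold change of -2.17 (SE 0.05, adjusted p = 2.02e-19). XBP1 ranged from 177 to 185 FPKM in A2780 (median 182) and from 51.5 to 55.6 in OlaR (median 53.5). Its spread was small in both groups, and the log2 fold change was -1.74 (SE 0.02, adjusted p = 3.52e-22). ERN1 (-1.98), ATF6 (-1.23) and EIF2AK3 (-0.59) were lower too, with no overlap for any of the 6.

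Among the feedback and stress effectors, 6 of 7 were lower. CHAC1 (chromosome 15, 40952962 to 40956512) fell most of the 37 genes, from 61.1 to 72.8 FPKM in A2780 (median 68.6) to between 2.45 and 3.85 in OlaR (median 3.03). The mean in A2780 was 22.4 times that in OlaR, with 68.0 ± 4.02 and 3.03 ± 0.526 FPKM (SD, n = 8 each), and the log2 fold change was -4.10 (SE 0.07, adjusted p = 2.96e-21). SESN2 (-2.24), VLDLR (-1.44), TRIB3 (-1.13), STC2 (-0.73) and PPP1R15A (-0.38) were lower, PPP1R15A with groups that overlapped. DDIT4 was not called (-0.17, 95% interval -0.36 to 0.02), but it was called lower under 5 alternatives given at the end.

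The genes for amino acid and one-carbon supply held the largest rise of the 37 genes and, after CHAC1, the largest fall on the log2 scale. SLC7A5 (chromosome 16, 87830023 to 87869507) ranged from 67.1 to 79.3 FPKM in A2780 (median 73.9) and from 632 to 809 in OlaR (median 697). Every OlaR library was several times above every A2780 library, with means of 74.0 ± 3.98 and 707 ± 69.0 FPKM (SD, n = 8 each) and a log2 fold change of 3.23 (SE 0.05, adjusted p = 3.3e-21). SLC7A5 shares 271 exonic bases with a gene of the other strand. SLC3A2 was higher as well (0.84), as was ALDH18A1 (0.30). PSAT1 (chromosome 9, 78297125 to 78330093), the middle enzyme of serine synthesis, ranged from 291 to 318 FPKM in A2780 (median 306) and from 57.5 to 66.5 in OlaR (median 60.0). It fell by 2.30 on the log2 scale (SE 0.03, adjusted p = 6.82e-22), and here the other serine genes moved with it, since PSPH fell by 2.17 and PHGDH by 1.12. ASNS fell by 2.10 and MTHFD2 by 1.01. SHMT2 was not called (0.06, 95% interval -0.06 to 0.18), but was called in either direction under other settings.

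Of the ER chaperones and folding genes, 8 were lower, 1 was higher and 3 were not called. HYOU1 (chromosome 11, 119044188 to 119057227), a large chaperone and exchange factor of BiP whose promoter is shown above, ranged from 202 to 222 FPKM in A2780 (median 216) and from 55.3 to 64.7 in OlaR (median 60.3). Its log2 fold change was -1.82 (SE 0.03, adjusted p = 2.47e-20), and 667 of its exonic bases are shared with a gene of the other strand. HSPA5 ranged from 447 to 471 FPKM in A2780 (median 457) and from 386 to 436 in OlaR (median 403). The groups did not overlap, but the log2 fold change of -0.16 (SE 0.03, adjusted p = 4.29e-05) was near the all-gene median, and with median ratio scaling it was -0.02 (adjusted p = 0.44). PDIA6 (-1.16), DNAJC3 (-0.86), DNAJB9 (-0.82), DNAJB11 (-0.79), CRELD2 (-0.39) and HSP90B1 (-0.27) were lower, the last pair with groups that overlapped. MANF (chromosome 3, 51385291 to 51389397) ranged from 39.1 to 50.1 FPKM in A2780 (median 45.5) and from 68.7 to 94.7 in OlaR (median 86.6). It was the only chaperone gene called higher (0.84, SE 0.08, adjusted p = 2.91e-09). CALR (0.05, 95% interval -0.06 to 0.15), PDIA4 (-0.02, -0.07 to 0.03) and SDF2L1 (-0.18, -0.43 to 0.06) were not called, but each was called under some alternatives, CALR and PDIA4 in either direction. The ER stress elements thus stood in promoters of genes that differed widely, from HYOU1 and XBP1 to CALR.

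All 3 genes of ER-associated degradation were lower. SEL1L ranged from 62.1 to 73.4 FPKM in A2780 (median 66.9) and from 12.9 to 18.1 in OlaR (median 13.97), a log2 fold change of -2.12 (SE 0.06, adjusted p = 4.96e-17). HERPUD1 fell by 1.65 and EDEM1 by 0.47 on the log2 scale, and no library overlapped for any of the 3.

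The 2 comparisons share no library, but shCON, second in one, and OlaR, first in the other, correlated at r = 0.996. A gene with a level in both of these above that in shCEBPB and A2780 is by construction lower in shCEBPB and higher in OlaR. The reverse holds for a gene with a level in both below that in shCEBPB and A2780. Opposite calls are therefore partly built in, and the shares of all genes are given beside each count. Set side by side, 13 genes were lower in both: EIF2AK3, ATF4, DDIT3, TRIB3, CHAC1, SESN2, PPP1R15A, STC2, ASNS, PSAT1, MTHFD2, DNAJB9 and EDEM1. That is 35.1% of the 37, against 15.9% of the 11603 genes tested in both. A further 12 were higher in shCEBPB and lower in OlaR: ERN1, ATF6, XBP1, VLDLR, PHGDH, PSPH, HSPA5, PDIA6, DNAJC3, DNAJB11, HYOU1 and SEL1L (32.4%, against 23% of all genes). The first set holds ATF4, DDIT3 and 5 of the 7 feedback and stress effectors, and the second holds ERN1, ATF6, XBP1 and 5 of the 12 chaperones. SLC7A5, SLC3A2 and MANF were lower in shCEBPB and higher in OlaR (8.11%, against 26.1% of all genes), ALDH18A1 was higher in both (10.6% of all genes were), and SHMT2 and PDIA4 were called in neither.

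Across the 4 groups, A2780 had the highest mean of 30 of the 37 genes, shCEBPB of 4, OlaR of 3 and shCON of none. The lowest mean was in shCEBPB for 17 genes, in shCON for 14, in A2780 for 4 and in OlaR for 2. These ranks were not counted over all genes, so whether they are particular to the 37 genes is not known. The highest group mean was 76.6 times the lowest for CHAC1, 14.3 times for SESN2, 12.5 times for DDIT3 and 9.555 times for SLC7A5, but 1.10 times for SHMT2 and 1.22 times for PDIA4. The levels were also set across the cell lines, in comparisons that share their libraries with those above and in which line and treatment differ together. OlaR differed from shCON in 20 of the 37 genes (54.1%, against 42.2% of 11547 genes), with 16 higher and 4 lower (19.3% and 22.9% of all genes), and none of the 37 reached a fold change of 2 (0.589% of all genes did). The largest differences there were PHGDH (0.57), TRIB3 (0.56) and HSPA5 (0.54) upward and CHAC1 (-0.62) downward. shCEBPB differed from A2780 in 36 of the 37 genes (97.3%, against 88.9% of 12234 genes), with 31 lower (51.5% of all genes), led by CHAC1 (-5.20) and SESN2 (-3.46), and 5 higher (37.4%), led by SLC7A5 (2.12). A fold change of at least 2 was reached there by 21 of the 37 genes and by 38.5% of all genes. The gene that was not called in that comparison was CALR (0.06, adjusted p = 0.288).

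Other genes of the same pathways were taken from 5 further lists with 76 genes. In shCEBPB against shCON, 35 of 75 tested were higher, 31 lower and 9 not called, with a median log2 fold change of 0.05. That is 46.7% higher and 41.3% lower, against 38.9% and 45.7% of all genes, whose median was -0.07. The 16 other ER folding genes had 9 higher and 6 lower, and the 17 other ERAD genes had 8 higher and 6 lower. The 16 other kinases, factors and regulators had 7 higher and 8 lower, the 14 tested of the other ATF4-linked amino acid genes had 6 higher and 7 lower, and the 12 aminoacyl-tRNA synthetases had 5 higher and 4 lower. On the FPKM + 1 scale the largest rises were DERL3, an ERAD membrane protein (0.0222 ± 0.0404 FPKM in shCON and 9.56 ± 2.22 in shCEBPB, log2 fold change 3.34), and the mitochondrial folate enzyme MTHFD1L (3.04). The largest falls were the stress cytokine GDF15 (138 ± 12.1 FPKM in shCON and 7.26 ± 1.73 in shCEBPB, -4.09) and GADD45A, a growth arrest gene (-3.25). By the ratio of the means ERO1B, an ER oxidase noted after its values were seen, fell more than either, from 5.37 ± 0.303 to 0.0491 ± 0.0315 FPKM (-2.60 on the FPKM + 1 scale).

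In OlaR against A2780, 58 of 75 of these other genes were lower, 14 higher and 3 not called, with a median of -0.62. That is 77.3% lower and 18.7% higher, against 49.7% and 40.1% of all genes, whose median was -0.12. All 12 cytosolic aminoacyl-tRNA synthetases linked to ATF4 were lower, with a median of -0.89 and groups that did not overlap for any of them, where 41.3% of all genes were lower without overlap. The other kinases, factors and regulators had 12 of 16 lower and 4 higher, the other ATF4-linked amino acid genes 10 of 15 lower and 5 higher, the other ER folding genes 12 of 16 lower and 3 higher, and the other ERAD genes 12 of 16 lower and 2 higher. On the FPKM + 1 scale the largest falls were CBS, which makes cystathionine (-3.07), and the hormone FGF21 (-2.997), in the reverse order by the ratio of the means (8.85 and 76.1 times). The largest rises were PYCR1, the last enzyme of proline synthesis (0.0922 ± 0.0741 FPKM in A2780 and 21.0 ± 2.65 in OlaR, log2 fold change 4.33), and GDF15 (1.98). GDF15 and PYCR1 therefore moved against most of their list in OlaR.

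The labels number the libraries within each group, and libraries 1 to 3 and 4 to 8 were analysed apart. In shCEBPB against shCON the fold change differed by more than 1.5 times between these ranges for 4 genes. SDF2L1 changed by 0.45 in libraries 1 to 3 and by 1.51 in libraries 4 to 8, so in the first range it was not the largest rise. ATF6 changed by 1.12 and 0.37, and SLC3A2 by -1.40 and -0.70. CRELD2 fell in the first range (-0.36, adjusted p = 0.00524) and rose in the second (0.29, adjusted p = 0.00221). CEBPB itself differed between them, with -1.29 and -0.60, and its part in these differences was not tested. In OlaR against A2780 the fold changes of DDIT4 (-0.58 and 0.07) and SDF2L1 (-0.72 and 0.14) differed by more than 1.5 times. In libraries 1 to 3 alone, the calls of PSAT1 (adjusted p = 0.4), PHGDH (0.0628) and DNAJB11 (0.079) in shCEBPB and of HSP90B1 in OlaR (0.147) were lost. The fold changes of ATF4, DDIT3, XBP1, TRIB3, SESN2 and STC2 differed by less than 1.5 times between the ranges in both comparisons, and none of these changed direction.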

How the data were processed

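mRNA was sequenced from 31 libraries of 4 groups, which were taken from the sample labels. Per the study's methods, libraries were read as 150-bp pairs with at least 6 Gb per sample, mapped to hg38 with TopHat and counted with HTSeq, and the authors tested differences with edgeR on counts. The submitters' processing notes also name FastQC. The values deposited by the authors are FPKM in 1 table. Since FPKM are not counts, limma took the place of the authors' test. The annotation and strand setting behind the FPKM are not given in the sources used here.

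Of 19225 entries, 4 were left out for a repeated symbol, and 23 entries had a date as symbol. Read totals are unknown, so no counting error is given. Low values came in steps, with 94.9% of 6756 low values within 0.05 of a whole number of steps, and the deepest library had 1.42 times the relative depth of the shallowest. FPKM summed to 417556 to 454578 per library, with 11045 to 11761 genes at 1 FPKM or more.

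Linear models were fitted in limma 3.58.1 under R 4.3.3 (lmFit, eBayes with trend) to log2(FPKM + 1), two-sided, within the 2 groups compared. A gene was tested if it reached 1 FPKM in at least the number of libraries of the smaller group, with Benjamini-Hochberg adjustment over all of them and calls under 0.05. This scale understates the change of low genes. The step was tested on simulated data. For CEBPB, group labels were also permuted exactly. Nothing says that libraries of a group came from separate cultures beyond the methods' term biological replicates, so the p-values measure the spread between these libraries. For some genes that spread held a step between libraries 1 to 3 and 4 to 8. MANF in OlaR had 68.7 to 69.3 FPKM and then 86.0 to 94.7. ATF6 in shCEBPB had 15.7 to 18.9 and then 10.3 to 12.1. For others, such as DDIT3 in OlaR and XBP1 in shCEBPB, the 2 ranges overlapped. Gene positions and exons came from GENCODE 44 and promoters from RefSeq. Tables were made in Python 3.11.15 with pandas 2.3.3 and numpy 2.4.6, and plots with matplotlib 3.10.9.

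The 37 genes, the other lists, the tests and the library ranges 1 to 3 and 4 to 8 were chosen with earlier results of these data known, and the lists are not independent evidence. Given in full are ATF4, DDIT3, XBP1 and HSPA5 and, in each role, the gene with the largest rise and the gene with the largest fall among those called. Of the other pathway genes, the 2 largest rises and falls are named. CHAC1 in shCEBPB was given in more detail after its values were seen. The alternatives were pseudocounts of 0.1 and 0.01, no filter and a filter at 5 FPKM, scaling to a common sum or by median ratios, quantile normalization, a correction for GC content and gene length, 1 fit of all 4 groups, replicate blocks, the library ranges, leaving out shCON replicate 1, an exact rank test and a fold change of at least 2.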

Additional observations from a re-analysis of the deposited data

Results flagged for a closer look

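In 6 of the 152 sets of libraries examined (37 genes and CEBPB in 4 groups), 1 library stood apart from the rest of its group by Dixon's criterion, which chance meets in about 1 set in 20. A2780 replicate 8 was the library in 3 of them: its STC2 level was 44.1 FPKM, where the other A2780 libraries held 49.4 to 53.9, its CALR level was 473 against 523 to 564, and its ASNS level was 226 against 182 to 199.99. ERN1 was at 1.91 FPKM in C13* shCEBPB replicate 8, where the others held 3.01 to 4.23, and this library made the groups overlap. DNAJB11 was at 52.6 FPKM in C13* shCEBPB replicate 6, against 45.1 to 48.1. HERPUD1 was at 87.6 FPKM in A2780 replicate 1, against 92.7 to 96.3. STC2, ASNS, DNAJB11, ERN1 and HERPUD1 each kept their direction in both ranges of library number. CALR in A2780 OlaR against A2780 did not, with -0.126 (adjusted p = 0.00209, limma) in libraries 1 to 3 and 0.148 (0.00602) in libraries 4 to 8.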

How the results depend on the processing

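In C13* shCEBPB against shCON, 28 of the 37 genes kept their direction and their side of the threshold under every alternative run other than the added fold threshold, and in A2780 OlaR against A2780 30 did. With a fold change of at least 2 as well, the genes called were 8 (1 higher, 7 lower) in shCEBPB, 18 (1 higher, 17 lower) in OlaR, 0 (0 higher, 0 lower) for OlaR against shCON, and 21 (1 higher, 20 lower) for shCEBPB against A2780. Median ratio scaling gave 7 higher genes in OlaR. For OlaR against shCON, 2 lower genes were left with a filter at 5 FPKM and 2 with the replicate block, and for shCEBPB against A2780, 2 higher genes were left in libraries 1 to 3. Changes of direction among genes that were not called follow. In shCEBPB, SHMT2 went to -0.0843 under quantile normalization and to -0.0187 with the GC and length correction (-0.0174 with the replicate block too). HSP90B1 went to 0.0326 with that correction (0.0270 with the block too) and to 0.15 in libraries 1 to 3, PDIA4 to -0.0778 under quantile normalization, CRELD2 to -0.36 in libraries 1 to 3, and HERPUD1 to 0.0016 under median ratios. In OlaR, SHMT2 went to -0.0094 under a common sum, to -0.10 with the correction (-0.10 with the block too) and to -0.19 in libraries 1 to 3. CALR went to -0.0245, -0.14 (-0.14 with the block too) and -0.13 under the same settings and to -0.27 under quantile normalization. PDIA4 went to 0.12 under median ratios, and DDIT4 to 0.0738 and SDF2L1 to 0.14 in libraries 4 to 8. Of these, the values of CRELD2 in shCEBPB, of SHMT2 in OlaR other than that under a common sum, of CALR other than that under a common sum, and of PDIA4 under median ratios had an adjusted p under 0.05 (limma). Calls were also gained without a change of direction. In shCEBPB these were SHMT2 (0.12) under median ratios, HSP90B1 (-0.28) and CRELD2 (0.29) in libraries 4 to 8, and PDIA4 under median ratios (0.13), 1 fit of 4 groups (0.06) and libraries 1 to 3 (0.14). In OlaR, DDIT4 was called lower under a common sum (-0.24), quantile normalization (-0.32), the correction (-0.30, -0.30 with the block too) and libraries 1 to 3 (-0.58). PDIA4 was called lower under a common sum (-0.09) and the correction (-0.17, -0.17 with the block too), and SDF2L1 under a common sum (-0.25) and in libraries 1 to 3 (-0.72). SHMT2 and CALR were called higher under median ratios (0.20 and 0.18) and in libraries 4 to 8 (0.21 and 0.15). CEBPB in OlaR was 0.0911 (adjusted p = 0.128) under a common sum, 0.16 with 1 fit of 4 groups (0.102), with the replicate block by either number (0.0508) and with the rank test (0.0923), and -0.0555 (0.371) in libraries 1 to 3. The cause of these changes was not tested. Same-numbered libraries deviated in opposite senses on average (mean r -0.14 in C13* and -0.23 in A2780, against 0.02 and 0.04 for other pairs). Within these comparisons the same number thus did not go with alike deviations. OlaR and shCEBPB were not compared in this way, and their sums of FPKM moved alike with the number. In OlaR the sums were 432948 to 435413 in libraries 1 to 3 and 448243 to 454578 in libraries 4 to 8. In shCEBPB they were 421616 to 432575 and 443684 to 453895. The sums of these ranges overlapped in shCON and in A2780. Whether the numbers mark a batch was not tested. The replicate block moved no other count of genes called by over 1.5 times. Absolute depth is unknown, which limits statements on genes near 0.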
